A study of Mus musculus with 6 samples.

Results

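The basement membrane is the thin sheet of extracellular matrix that cells of an epithelium or endoderm lay down beneath themselves. The 10 genes described here encode structural chains and associated proteins of this sheet. They were chosen by symbol, as chains of laminin (Lama1, Lama5, Lamb1 and Lamc1), the main chains of collagen IV (Col4a1 and Col4a2), the nidogens (Nid1 and Nid2), perlecan (Hspg2) and Sparc, and were read by Ensembl identifier from a table of 55401 genes. These genes, the other gene lists used below and the tests were chosen with earlier results of these data known. Counts of calls therefore describe these libraries and are not independent support. All 10 were found and all 10 were among the 17778 genes that passed the filter on low counts. The lowest count of any of them in any library was 1144, for Col4a2 in expressing replicate 2, so none passed only through the group in which it was higher.

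The study sequenced polyadenylated RNA of mouse embryonic stem (ES) cells, the cultured equivalent of the early embryo's inner cells, and concerns Taf13, a subunit of the general transcription factor TFIID. The group called expressing here is 3 libraries of cells labelled as expressing 3XHA-Taf13 and given no treatment. The group called KO is 3 libraries labelled KO from cells given doxycycline. Both were cultured for 7 days before RNA extraction, each replicate in its own Petri dish. The KO label and doxycycline always go together, so an effect of the drug and of the loss of Taf13 cannot be told apart, and neither the alleles nor the ES cell line nor a shared starting culture is given in the sources used here, so p-values measure the spread between dishes. Taf13 itself had 244, 445 and 447 reads in expressing replicates 1 to 3 and 422, 634 and 699 in KO replicates 1 to 3 (log2 fold change 0.40, SE 0.147, edgeR adjusted p = 0.0578). It was called higher in KO under 9 of the 14 alternative settings (log2 fold changes over the 14 from 0.28 to 0.57) and lower under 0, so the read count of the gene does not bear out the KO label. The sources used here do not say how the KO was made or how reads of the tagged copy are counted. KO below therefore means the label only, and every direction is that of the libraries so labelled. The defining pluripotency markers Pou5f1, Nanog and Sox2 were read in every library, at 112 CPM or more (a gene's counts relative to library size, with libraries scaled to each other by the TMM method). Total counts ran from 31219328 to 50328010 per library, and a count of 3 corresponded to 0.0581 to 0.0961 CPM. Expressing replicate 1 stood apart from the other libraries of its group (chi-square per degree of freedom 37.9 and 30.8, against 3.49 to 6.2 for the other pairs within a group), and its deviation followed GC content across genes (r = 0.553, over genes, which are not independent replicates). Results that rest on it are given with and without it.

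Laminins are trimers of an alpha, a beta and a gamma chain that polymerise into a sheet on the cell surface. Lama1, Lamb1 and Lamc1 make laminin-111, and Lama5 with the same beta and gamma chains makes laminin-511. Collagen IV, built mostly from Col4a1 and Col4a2, forms a covalent network, and nidogens and perlecan link it to the laminin sheet. In the early mouse embryo, the primitive endoderm and its parietal descendants are known for secreting laminin-111, collagen IV and Sparc, a collagen-binding matrix protein.

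RefSeq held a promoter window, from 250 bases before to 50 after the start, for 7 of the 10 genes (build GRCm38.p6). There was no entry for Lama1, Lamc1 and Nid2. The DNA before the first annotated exon is shown for 4 genes. Some of those that were higher in KO (Hspg2, Lamb1 and Nid1) are set beside Lama5, which was not called. The windows of Col4a1, Col4a2 and Sparc, also called higher, are not shown. Capitals mark the GC-box letters GGGCGG and the CCAAT letters, on either strand, so that CCGCCC and ATTGG are the same motifs read from the other side. The bases are 216 from chr4:137468553-137468768 on the plus strand for Hspg2, 191 from chr12:31265043-31265233 on the plus strand for Lamb1, 199 from chr13:13437352-13437550 on the plus strand for Nid1, and 250 from chr2:180225860-180226109 on the minus strand for Lama5.
Hspg2: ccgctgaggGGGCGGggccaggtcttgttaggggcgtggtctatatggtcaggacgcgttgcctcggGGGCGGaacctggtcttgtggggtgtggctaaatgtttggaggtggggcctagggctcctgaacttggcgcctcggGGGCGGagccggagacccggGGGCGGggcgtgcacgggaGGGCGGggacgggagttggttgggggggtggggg
Lamb1: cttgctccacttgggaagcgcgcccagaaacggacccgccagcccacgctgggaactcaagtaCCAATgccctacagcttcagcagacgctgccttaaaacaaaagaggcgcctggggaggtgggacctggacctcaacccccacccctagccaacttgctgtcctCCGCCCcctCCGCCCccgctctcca
Nid1: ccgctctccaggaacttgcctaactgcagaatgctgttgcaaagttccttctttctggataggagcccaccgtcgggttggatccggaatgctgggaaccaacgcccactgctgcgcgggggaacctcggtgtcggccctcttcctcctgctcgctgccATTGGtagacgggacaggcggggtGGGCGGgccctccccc
Lama5: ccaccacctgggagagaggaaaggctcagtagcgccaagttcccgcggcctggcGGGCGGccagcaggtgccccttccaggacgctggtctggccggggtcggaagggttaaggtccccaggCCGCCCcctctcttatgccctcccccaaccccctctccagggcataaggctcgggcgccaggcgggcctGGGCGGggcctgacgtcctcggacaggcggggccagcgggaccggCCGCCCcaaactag
The stretch before Hspg2 holds 5 GGGCGG matches and that before Lama5 holds 4, while Lamb1 and Nid1 have 1 CCAAT match each beside 2 and 1 GGGCGG matches. Over the full windows of 300 bases, GGGCGG was found in 6 of the 7 (all but Sparc), against 35.7% of 32851 RefSeq windows of the same length. The Sparc window has its start at chr11:55420080, inside the annotated gene (55394500 to 55423183, minus strand). It therefore does not cover the outermost annotated start of Sparc. CCAAT was found in 4 of 7 (Col4a1, Col4a2, Lamb1 and Nid1), against 37.4%. AGATAA, the letters of a GATA site, were in 0 of the 7 windows, against 11.2% of all windows. AACAAT, the letters of a SOX site, were also in 0 of 7, against 10.7%. The TATA-box letters TATAAA were in 0 of 7, against 13.6%. All letters were searched on both strands, and no match overlapped another within a window. The Col4a1 and Col4a2 windows themselves overlap, and the single GGGCGG match of Col4a1 is the same genomic site as a match of Col4a2, so that site counts for both genes. These are matches of letters only: Lama5, not called, and Hspg2, called higher, both hold several GGGCGG matches.

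Most of the basement membrane genes were higher in the cells labelled KO, by between 1.22-fold (Nid1) and 4.44-fold (Lama1), and none was lower. Of the 10 genes, 8 were called higher in KO (edgeR quasi-likelihood test, adjusted p under 0.05 over all tested genes), against 19.2% of all tested genes, and 0 were called lower, against 20.8%. Calls in either direction took 40% of all tested genes. Of these 7117 calls 3422 were higher, and with libraries scaled by their totals alone it was 4466 of 7036. In 8 genes every library labelled KO lay above every expressing library, against 26.4% of tested genes, and in 0 genes every library labelled KO lay below, against 27.1%. Being called and at least 2-fold higher held for 4 genes (Lama1, Col4a2, Col4a1 and Sparc), against 5.22%. The median log2 fold change over the 10 was 0.74, beside -0.01 over all tested genes. In these bulk libraries, more cells of a type that makes basement membrane and more RNA per cell cannot be told apart.

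**Figure D1:**
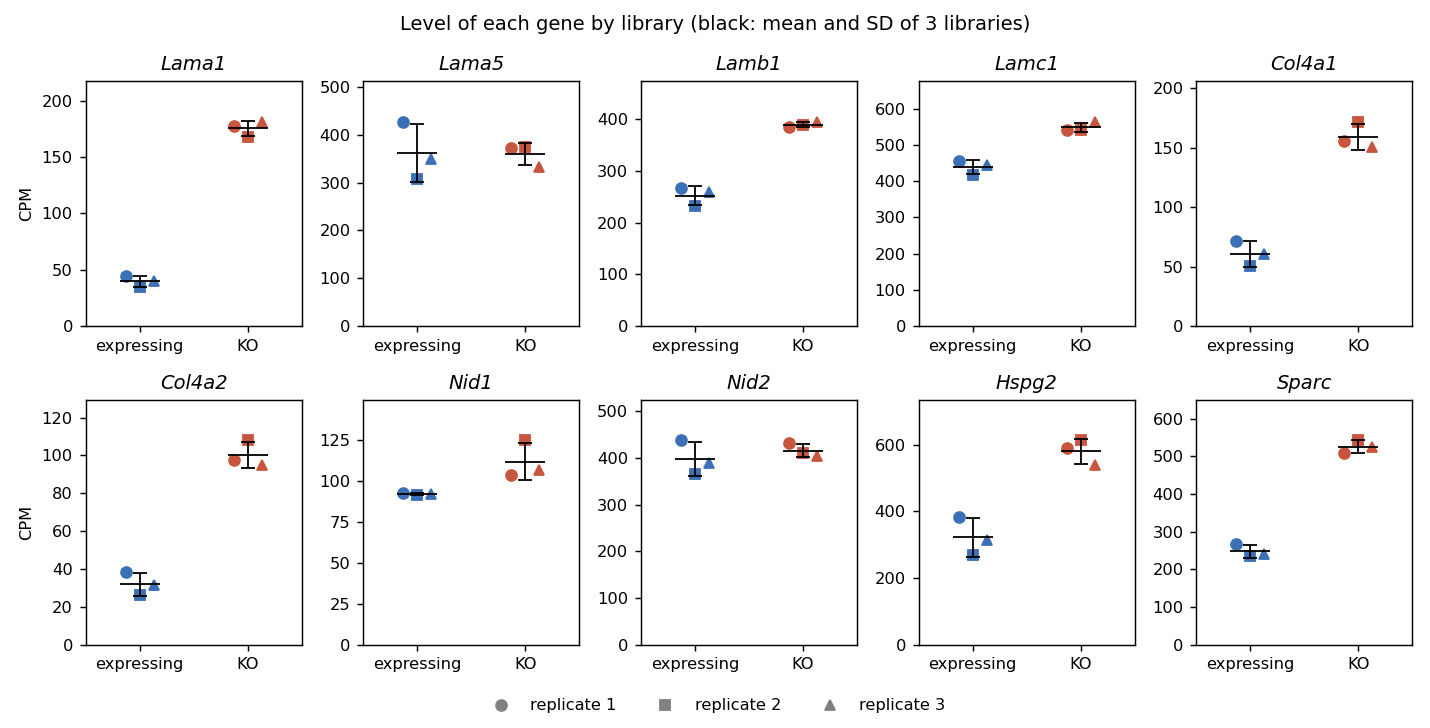
Level of each of the 10 genes in CPM (y axis, linear, from 0) in the 3 expressing libraries and the 3 labelled KO; symbols are replicates, and black bars are the mean and SD of 3 libraries. The KO points lie above the expressing points in 8 panels and overlap them for Lama5 and Nid2.

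Together the 10 genes summed to 2483, 2028 and 2219 CPM in the expressing libraries and to 3362, 3443 and 3293 CPM in the libraries labelled KO. The sum was thus 2243 ± 229 CPM against 3366 ± 75.1 CPM (SD, n = 3 each). As a share of all reads, it was 0.195% to 0.248% in expressing libraries and 0.338% to 0.358% in libraries labelled KO, with Wilson 95% intervals of 0.193% to 0.25% and of 0.336% to 0.36% from the lowest to the highest bound, which cover counting error only. Of the 1123 CPM between the group means, Sparc made up 24.8%, Hspg2 23%, Lamb1 12.2% and Lama1 12.1%.

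Among the laminin chains, the alpha-1 chain gene Lama1 moved most. It lies on chromosome 17 (67697259 to 67822647, plus strand, mm10). Its level was 44.3, 34.7 and 39.6 CPM in the expressing libraries and 177, 168 and 181 CPM in the libraries labelled KO. Every library labelled KO was thus far above every expressing one, and the groups did not overlap. Lama1 was 4.44-fold higher (95% interval 3.87 to 5.11, log2 fold change 2.15, SE 0.0895, edgeR adjusted p = 9.6e-07). The alpha-5 chain gene Lama5, on chromosome 2 (180176373 to 180225859, minus strand), read 427, 307 and 349 CPM in the expressing libraries and 372, 375 and 333 CPM in the libraries labelled KO. The groups overlapped, and expressing replicate 1 was the highest of all 6 libraries. Its log2 fold change was -0.00 (95% interval -0.25 to 0.24, edgeR adjusted p = 0.979), or between 0.842-fold and 1.18-fold. Without expressing replicate 1, the log2 fold change of Lama5 was 0.16 (edgeR adjusted p = 0.118).

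The beta-1 and gamma-1 chains, which both laminins share, were higher by smaller amounts. Lamb1, on chromosome 12 (31265234 to 31329644, plus strand), read 266, 232 and 259 CPM in the expressing libraries and 385, 388 and 395 CPM in the libraries labelled KO. The libraries labelled KO were close together and all above the expressing ones, and Lamb1 was 1.54-fold higher (log2 fold change 0.63, SE 0.0636, edgeR adjusted p = 7.97e-05). Lamc1, on chromosome 1 (153218922 to 153332786, minus strand), read 456, 418 and 444 CPM in the expressing libraries and 542, 540 and 564 CPM in the libraries labelled KO. Again the groups did not overlap, and the rise was 1.25-fold (log2 fold change 0.32, SE 0.055, edgeR adjusted p = 0.00159).

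The collagen IV chains rose side by side. Col4a1 and Col4a2 start head to head on chromosome 8 (11198423 to 11312826, minus strand, and 11312805 to 11449287, plus strand), and their first exons share 22 bases, chr8:11312805-11312826, which hold a GGGCGG match. Col4a1 read 71.7, 50.2 and 60.2 CPM in the expressing libraries and 156, 172 and 151 CPM in the libraries labelled KO. Col4a2 read 38.1, 26.0 and 31.7 CPM in the expressing libraries and 97.6, 108 and 94.97 CPM in the libraries labelled KO. In both genes all libraries labelled KO lay above all expressing ones. The order of the 6 libraries was the same: expressing replicates 2, 3 and 1, then KO replicates 3, 1 and 2. This order was not particular to the pair, since Hspg2 and Lamb2 had it too. Col4a1 was 2.63-fold higher (log2 fold change 1.40, SE 0.117, edgeR adjusted p = 2.82e-05) and Col4a2 3.15-fold higher (log2 fold change 1.65, SE 0.125, edgeR adjusted p = 1.56e-05). The strand option of the counting is not given in the sources used here, so reads of the 22 shared bases, and of 43 exonic bases that Col4a2 shares with the antisense gene Gm15419, may not be assigned to the right gene.

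The nidogens, which join laminin to collagen IV, moved little. Nid1, on chromosome 13 (13437551 to 13512269, plus strand), read 92.7, 91.2 and 92.1 CPM in the expressing libraries and 104, 125 and 107 CPM in the libraries labelled KO. The groups did not overlap, with KO replicate 2 above the other libraries labelled KO, and Nid1 was 1.22-fold higher (log2 fold change 0.28, SE 0.0757, edgeR adjusted p = 0.0155). Without KO replicate 2 the call was lost (log2 fold change 0.20, edgeR adjusted p = 0.0657). Nid2, on chromosome 14 (19751265 to 19811787, plus strand), read 438, 366 and 389 CPM in the expressing libraries and 432, 411 and 404 CPM in the libraries labelled KO. These ranges overlapped, and Nid2 was not called (log2 fold change 0.06, 95% interval -0.10 to 0.22, edgeR adjusted p = 0.508). It passed the test without expressing replicate 1, its highest library (log2 fold change 0.17, edgeR adjusted p = 3.07e-04), and with the GC trend of each library removed (0.11, edgeR adjusted p = 0.0285), with values inside that interval in both cases. Exons of Nid1 and Nid2 share 143 and 437 bases with genes on the opposite strand, Gm48682 and Rtraf.

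Perlecan and Sparc gave the largest changes in CPM. Hspg2, which encodes the core protein of this heparan sulfate proteoglycan, lies on chromosome 4 (137468769 to 137570630, plus strand). It read 384, 268 and 314 CPM in the expressing libraries and 590, 613 and 538 CPM in the libraries labelled KO. Although expressing replicate 1 was again the highest of its group, it stayed below every library labelled KO, and Hspg2 was 1.80-fold higher (log2 fold change 0.85, SE 0.115, edgeR adjusted p = 4.15e-04). Sparc, on chromosome 11 (55394500 to 55423183, minus strand), read 266, 235 and 240 CPM in the expressing libraries and 509, 542 and 525 CPM in the libraries labelled KO. The groups were well apart, and Sparc was 2.13-fold higher (log2 fold change 1.09, SE 0.0634, edgeR adjusted p = 3.66e-06).

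**Figure D2:**
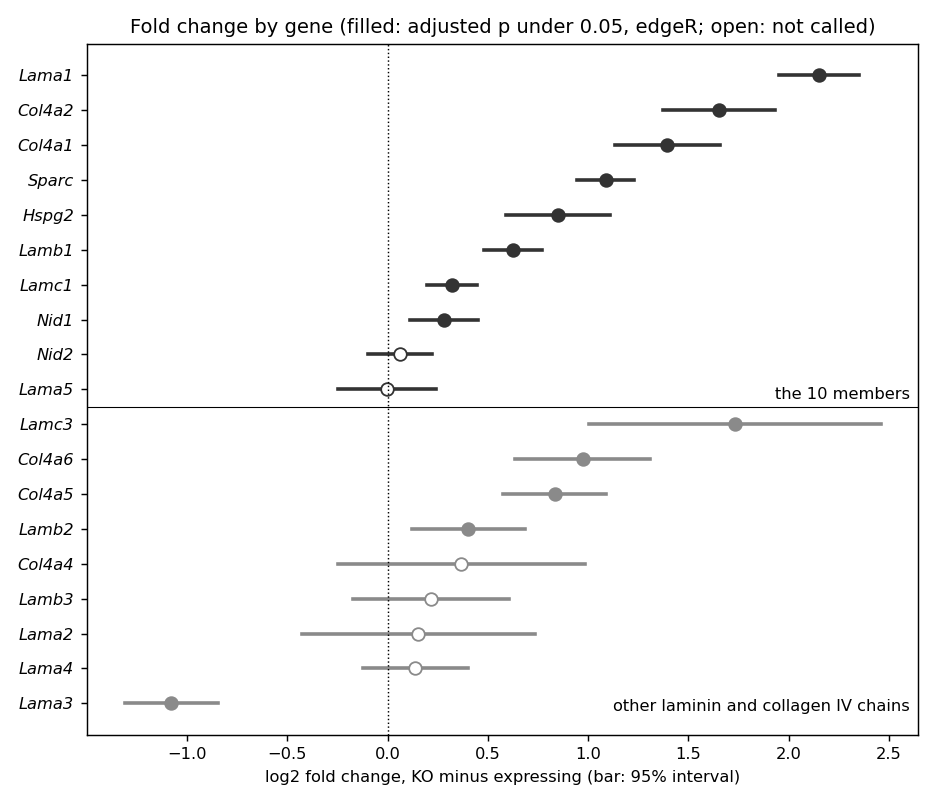
Log2 fold change, KO minus expressing (x axis), with 95% intervals, for the 10 genes (black) and 9 tested other laminin and collagen IV chains (grey); filled points passed the edgeR test and open points did not. Lama1 (2.15) lies farthest right, and Lama3 (-1.08) is the filled point left of 0.

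Levels can be set against each other per length, as CPM divided by the summed length of a gene's exons in kb. In the expressing cells the order of mean levels was Nid2 (76.9 CPM per kb), Sparc (65.2), Lamc1 (53.1), Lama5 (31.7), Lamb1 (25.5), Hspg2 (22.5), Nid1 (13.3), Col4a1 (8.13), Col4a2 (4.82) and Lama1 (4.08). Neighbours overlapped over the 3 libraries for Lamb1 with Hspg2 and for Col4a2 with Lama1. In the cells labelled KO the order was Sparc (139 CPM per kb), Nid2 (80.3), Lamc1 (66.3), Hspg2 (40.6), Lamb1 (39.3), Lama5 (31.6), Col4a1 (21.4), Lama1 (18.1), Nid1 (16.1) and Col4a2 (15.1). There Hspg2 overlapped Lamb1, and Nid1 overlapped both Lama1 and Col4a2. Lama1 thus left the lowest place of the 10, where it stood in the expressing cells. The order depends on the length used: per kb of the longest transcript, Sparc led in both groups (107 and 228 CPM per kb), and Lamb1 (43.6 and 67.3) stood above Lama5 (31.7 and 31.6).

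Partner chains shifted relative to each other within each library. The ratio of Lama1 to Lamc1, in counts per kb, was 0.083, 0.071 and 0.0761 in expressing libraries, against 0.28, 0.266 and 0.275 in libraries labelled KO. The ratio of Lama5 to Lama1 was 8.19, 7.52 and 7.5 in expressing libraries, against 1.78, 1.9 and 1.56 in libraries labelled KO. Neither ratio overlapped between groups, and Lama5 remained the more abundant alpha chain per length in every library. Of all laminin alpha-chain signal per kb, Lama1 made up 11% ± 0.455 in expressing and 35.8% ± 2.26 in cells labelled KO, and Lama5 85.3% ± 0.774 and 62.3% ± 2.29 (SD, n = 3 each).

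The ratio of Lamb1 to Lamc1 went from a geometric mean of 0.479 to 0.592, and that of Col4a2 to Col4a1 from 0.592 to 0.708, again without overlap. The 3 libraries labelled KO gave Col4a2 to Col4a1 ratios of 0.708, 0.708 and 0.709, and the 3 expressing libraries 0.599, 0.583 and 0.594. The log2 differences, KO minus expressing, were 1.84 for Lama1 to Lamc1, -2.15 for Lama5 to Lama1, 0.31 for Lamb1 to Lamc1 and 0.26 for Col4a2 to Col4a1. Each of these 4 had p = 0.1 in a two-sided exact permutation test, the smallest p that 3 against 3 libraries allow, and 0.125 after Benjamini-Hochberg adjustment over the 5 ratios tested, so the design could not reach 0.05. Nid2 to Nid1 overlapped between groups (geometric means 5.79 and 5, exact permutation p = 0.2, adjusted 0.2). Per kb of the longest transcript, the Lamb1 to Lamc1 ratio was 0.756 and 0.936, with the same difference between groups.

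**Figure D3:**
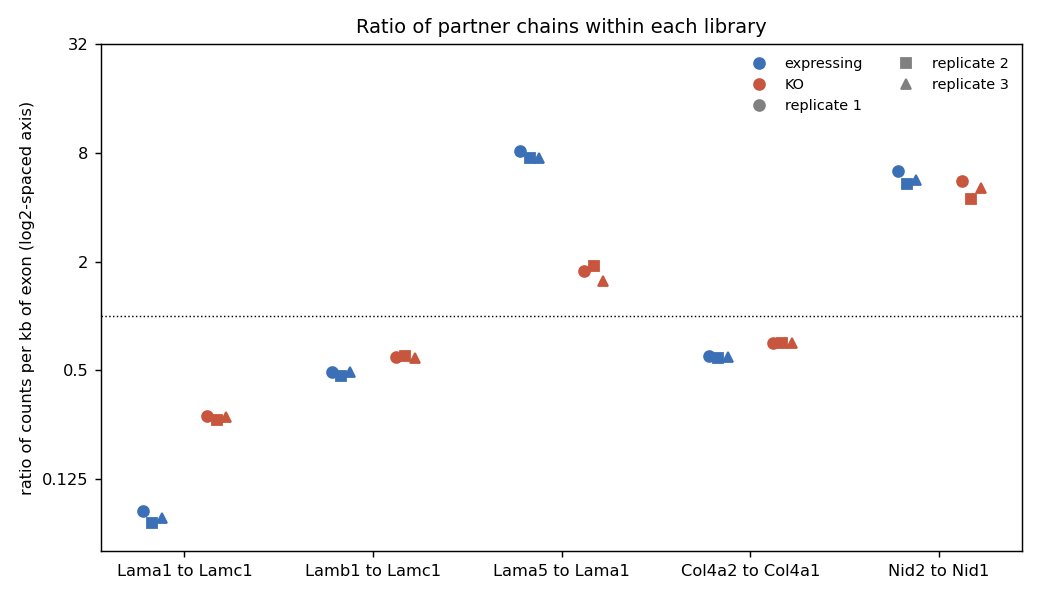
Ratio of counts per kb of exon between partner chains within each library (y axis, log2-spaced), with expressing libraries in blue and libraries labelled KO in red; symbols are replicates, and the dotted line marks equal levels. The groups are apart for 4 ratios and overlap for Nid2 to Nid1.

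Among other chains of the laminin and collagen IV families, 10 genes were looked up and 9 were tested. Of these 4 were higher, 1 was lower and 4 were not called by edgeR, with a median log2 fold change of 0.37. Calls took 55.6%, against 40% of all tested genes. By direction, 44.4% were higher against 19.2%, and 11.1% were lower against 20.8%. Col4a5, a chain of a minor collagen IV network, read 7.11, 6.85 and 6.24 CPM in the expressing libraries and 11.2, 13.7 and 11.1 CPM in the libraries labelled KO (log2 fold change 0.83, SE 0.115, edgeR adjusted p = 4.61e-04). Col4a6 (0.97) and Lamc3 (1.73), the last at under 1 CPM in every library, were also higher. Lamc3 had 5, 9 and 7 reads in the expressing libraries and passed the low-count filter only through the libraries labelled KO. Under a filter of at least 1 CPM in 3 libraries, 3 of these chains were higher and 1 lower. Lamb2 was called (0.40, edgeR adjusted p = 0.0294), but the call was lost when expressing replicate 2 or 3, or KO replicate 1 or 2, was left out (edgeR adjusted p from 0.0729 to 0.11). Lama3 went the other way, from 9.71, 8.69 and 8.73 CPM to 4.36, 4.02 and 4.46 CPM (log2 fold change -1.08, SE 0.104, edgeR adjusted p = 6.08e-05). Lama2 (0.15), Lama4 (0.14), Lamb3 (0.22) and Col4a4 (0.37) were not called, and Col4a3 was not tested. In share of collagen IV signal per kb, Col4a2 stood at 33.9% ± 0.812 in expressing and 39.2% ± 0.114 in cells labelled KO, Col4a1 at 57.3% ± 0.572 and 55.3% ± 0.148, and Col4a5 at 7.19% ± 1.22 and 4.6% ± 0.252 (SD, n = 3 each).

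Other basement membrane components were mixed. Of 17 tested, 6 were higher, 2 lower and 9 not called, with a median log2 fold change of 0.19. Calls thus took 47.1% of the list, near the 40% of all tested genes. Higher calls took 35.3%, against 19.2% of all tested genes, and lower calls 11.8%, against 20.8%. The heparan sulfate proteoglycan agrin (Agrn, 0.19, edgeR adjusted p = 0.0814) and collagen XVIII (Col18a1, 0.16, edgeR adjusted p = 0.246), named after their values were seen as the most abundant of the list, were not called. Nephronectin (Npnt, 1.15), an integrin ligand, Egflam (2.49), which encodes a dystroglycan ligand, and netrin-4 (Ntn4, 1.41), which binds laminin gamma chains, were higher, the last 2 at under 2 CPM in every library. Egflam, at 10, 6 and 7 reads in the expressing libraries, passed the low-count filter only through the libraries labelled KO. Under a filter of at least 1 CPM in 3 libraries, 5 components were higher and 2 lower. Smoc1, a matricellular relative of Sparc, fell from between 17.2 and 18.7 CPM to between 8.64 and 9.32 CPM (log2 fold change -0.99, edgeR adjusted p = 2.86e-05).

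Receptors for laminin and collagen gave 6 higher, 0 lower and 7 not called of 13 tested, with a median log2 fold change of 0.26. Calls took 46.2% of the list, near the 40% of all tested genes, and all of them were higher, against 19.2% higher and 20.8% lower over all genes. Itgb1, the beta-1 subunit shared by the main laminin and collagen integrins, read 476, 579 and 573 CPM in the expressing libraries and 775, 896 and 812 CPM in the libraries labelled KO (log2 fold change 0.61, SE 0.0859, edgeR adjusted p = 5.25e-04). Its partners Itga1 (1.02) and Itga7 (1.10), subunits of a collagen and a laminin receptor, and the syndecan Sdc4 (0.65) were also higher. Itga6, the laminin-binding alpha-6 subunit, was not called (-0.07, edgeR adjusted p = 0.348), and neither was Itga3 (0.22, edgeR adjusted p = 0.0667). Both were named after their values were seen. Receptors called numbered 10 without expressing replicate 1, all higher, and 11 with the GC trend removed, 9 higher and 2 lower, while calls over all genes went from 7117 to 9440 and 9450.

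Enzymes and chaperones of collagen synthesis gave 9 higher, 2 lower and 9 not called of 20 tested, with a median log2 fold change of 0.32. Calls took 55% of the list, against 40% of all tested genes. By direction, 45% were higher against 19.2%, and 10% were lower against 20.8%. Of the catalytic subunits of prolyl 4-hydroxylase, which stabilise the collagen helix, P4ha1 (0.70, edgeR adjusted p = 3.67e-05) and P4ha2 (1.10, edgeR adjusted p = 1.07e-05) were higher. P4ha3, at no more than 3.26 CPM, was not called (-0.05, edgeR adjusted p = 0.912). Serpinh1, the collagen chaperone HSP47, read 65.3, 56.6 and 63.1 CPM in the expressing libraries and 115, 127 and 114 CPM in the libraries labelled KO (log2 fold change 0.94, edgeR adjusted p = 2.07e-05). Loxl2, a crosslinking enzyme that acts on collagen IV, was 1.94-fold higher (edgeR adjusted p = 1.92e-04). P4hb, the other prolyl 4-hydroxylase subunit and a general disulfide isomerase, was lower (-0.22, edgeR adjusted p = 0.0108), and so was Mia2 (-0.32), which takes part in export of bulky cargo. P4ha3, P4hb and Mia2 were named after their values were seen. Without expressing replicate 1 this list gave 13 higher and 2 lower, where calls over all genes were 9440 against 7117.

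Proteases, inhibitors and other genes of matrix turnover gave 8 higher, 1 lower and 8 not called of 17 tested, with a median log2 fold change of 0.27. Calls took 52.9% of the list, against 40% of all tested genes, with 47.1% higher against 19.2%. The secreted protease Htra1 was 2.52-fold higher (edgeR adjusted p = 2.05e-05), the plasminogen activator Plat 1.86-fold (edgeR adjusted p = 4.22e-04) and the procollagen protease Bmp1 had a log2 fold change of 0.59 (edgeR adjusted p = 0.00165). Adamts1, a secreted metalloprotease, was 1.32-fold higher (edgeR adjusted p = 0.00236). The calls of this list numbered 11 without expressing replicate 1, 5 without expressing replicate 2 and 4 without expressing replicate 3, where calls over all genes were 9440, 6751 and 5557, and 7 or 8 without any 1 of KO replicates 1, 2 and 3.

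**Figure D4:**
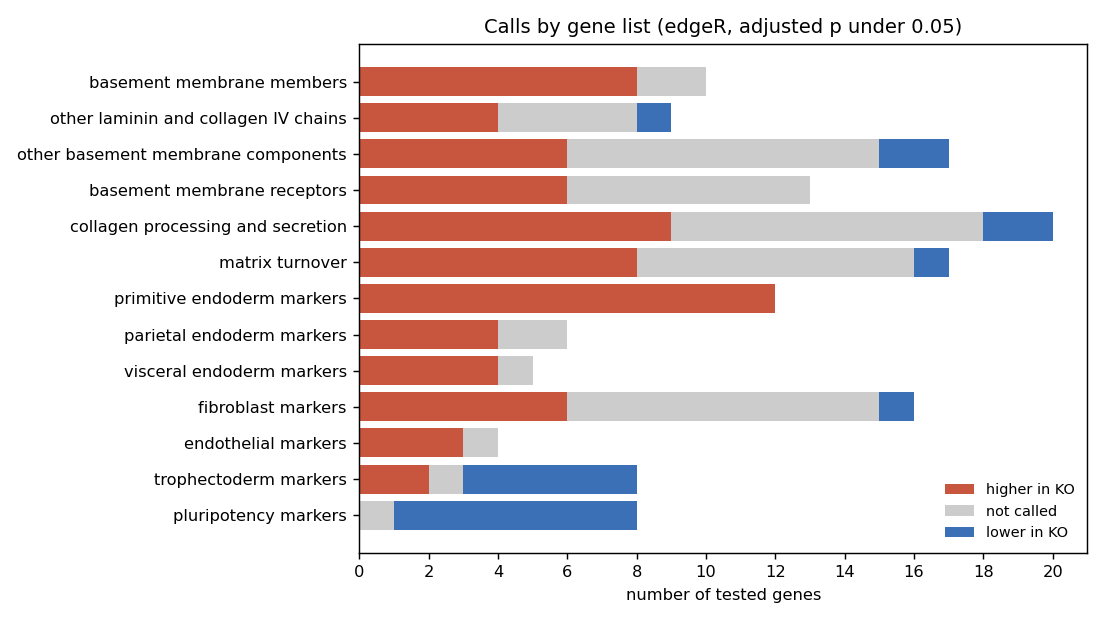
Number of tested genes (x axis) called higher (red), not called (grey) and called lower (blue) in KO by edgeR, for each gene list. The 10 basement membrane genes gave 8 higher calls, and the primitive endoderm markers 12 of 12, against 19.2% of all tested genes.

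Markers of primitive endoderm, and most but not all tested markers of parietal and visceral endoderm, were higher in KO. All 12 primitive endoderm markers were called higher, against 19.2% of all tested genes. Their summed level was 360 to 381 CPM in the expressing libraries and 817 to 860 CPM in the libraries labelled KO. Most of it came from the endocytic receptor Lrp2. The transcription factor Gata6 read 1.70, 1.57 and 1.56 CPM against 10.6, 9.16 and 10.9 CPM (log2 fold change 2.67, edgeR adjusted p = 1.34e-06). Gata4 was 3.77-fold higher (mean 4.6 CPM in expressing, 17.4 in KO) and Pdgfra 7.28-fold (3.09 and 22.6 CPM). Sox17 was 9.38-fold higher from a low level (mean 0.417 CPM in expressing, 3.9 in KO). Cubn, an endocytic receptor, was 10.6-fold higher (mean 10.7 CPM in expressing, 114 in KO). The proteoglycan Srgn was 12.5-fold higher (mean 1.28 CPM in expressing, 16.3 in KO). Of 6 parietal endoderm markers, 4 were higher (66.7%, against 19.2% of all tested genes). Summed levels of the list were 270 to 310 CPM and 546 to 667 CPM, mostly from Vim (2.09-fold). Stra6, Pth1r and Plat were 4.22-fold, 2.08-fold and 1.86-fold higher. The parietal markers Thbd and Snai1 were not called (edgeR adjusted p = 0.622 and 0.925). Of 10 visceral endoderm markers 5 were tested and 4 were higher (80%, against 19.2% of all tested genes). Summed levels of the list were 13.6 to 14.5 CPM and 22.2 to 25 CPM. The defining secreted products Afp and Ttr were at 0.229 CPM or less and 0.0222 CPM or less in every library. The higher visceral markers were Apob (1.63-fold), Hnf4a (4.03-fold, at about 1 CPM or less), Amn (2.44-fold) and Hhex (1.61-fold). Hnf4a, at 4, 8 and 13 reads in expressing replicates 1 to 3, would not have passed the filter without the libraries labelled KO. When at least 1 CPM in 3 libraries was required, 3 visceral markers were called higher. Rbp4 was not called (edgeR adjusted p = 0.887).

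Of 4 tested endothelial markers 3 were higher (75%, against 19.2% of all tested genes). This count includes Cdh5, at 7 reads in each expressing library. Cdh5 passed the filter on low counts only through the libraries labelled KO. With at least 1 CPM in 3 libraries required, 2 endothelial markers were called higher. Summed levels of the list were 13.5 to 14.3 CPM and 26.3 to 27.8 CPM. Kdr, the main receptor for VEGF, was 4.08-fold higher (3.07 ± 0.378 against 12.5 ± 0.469 CPM, SD, n = 3 each), and Tek was 1.32-fold higher. Cdh5, the defining endothelial cadherin, was 5.23-fold higher (edgeR adjusted p = 2.64e-04) and reached at most 1.18 CPM. Erg was not called (edgeR adjusted p = 0.992). Trophectoderm markers were mixed, with 2 higher (25%) and 5 lower (62.5%) of 8 tested, against 19.2% and 20.8% of all tested genes. Summed levels of the list were 199 to 247 CPM and 202 to 213 CPM. Tfap2c, Cdx2 and Krt8 stood at 0.414-fold, 0.484-fold and 0.731-fold of the expressing level, and Gata3 was 2.69-fold higher. Pluripotency markers were called lower in 7 of 8 cases (87.5%, against 20.8% of all tested genes). Their sum was 2020 to 2175 CPM in the expressing libraries and 1131 to 1144 CPM in the libraries labelled KO. Zfp42 stood at 0.387-fold, Nanog at 0.422-fold, Tfcp2l1 at 0.468-fold and Esrrb at 0.509-fold of the expressing level. The list of visceral markers shares Amn with the primitive endoderm list, and Plat stands in both the parietal and the matrix turnover lists. None of the listed markers had 0 reads in all 6 libraries. The part of any of these cell types in the basement membrane result was not tested.

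Fibroblast markers were mixed. Of 16 tested, 6 were higher, 1 was lower and 9 were not called, so 43.8% were called against 40% of all tested genes. Higher calls took 37.5% of the list, against 19.2% of all tested genes, and lower calls 6.25%, against 20.8%. Summed levels were 285 to 302 CPM in the expressing and 302 to 520 CPM in the libraries labelled KO. Dcn (4.29-fold), Postn (3.14-fold) and Twist1 (1.45-fold) were higher, the first and second of these at under 3 CPM in every library, and Thy1 stood at 0.538-fold. Postn, at 11, 7 and 15 reads in the expressing libraries, would not have passed the filter without the libraries labelled KO. Where at least 1 CPM in 3 libraries was required, the list gave 5 higher and 1 lower. The fibrillar collagen genes Col1a1, Col1a2 and Col3a1 were not called, and all 3 were highest in KO replicate 2. Col5a1 (means 54.7 CPM in expressing and 73.0 in KO, edgeR adjusted p = 0.045) was called higher. So were Fbn1 (41.3 and 53.8 CPM, edgeR adjusted p = 0.0374) and Prrx1 (1.91-fold, edgeR adjusted p = 0.0357). These too were highest in KO replicate 2. Col1a1 read 58.7, 41.6 and 48.5 CPM in the expressing libraries and 40.9, 76.0 and 40.1 CPM in the libraries labelled KO, and Col1a2 read 41.7, 35.4 and 41.4 CPM against 31.6, 68.0 and 31.8 CPM. Among the basement membrane genes, Nid1, Col4a1, Col4a2, Hspg2, Lama5 and Sparc were also at their highest KO level in that library. Without it, 7 of the 10 genes were called higher: Col4a1 had a log2 fold change of 1.34, Col4a2 of 1.60 and Hspg2 of 0.81, and Nid1 was no longer called. Without KO replicate 2 the fibroblast list gave 3 higher and 4 lower. The list gave 3 higher and 1 lower when expressing replicate 1, 2 or 3 was left out. Calls over all genes were 5188 without KO replicate 2, and 9440, 6751 and 5557 without expressing replicates 1, 2 and 3, against 7117.

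**Figure D5:**
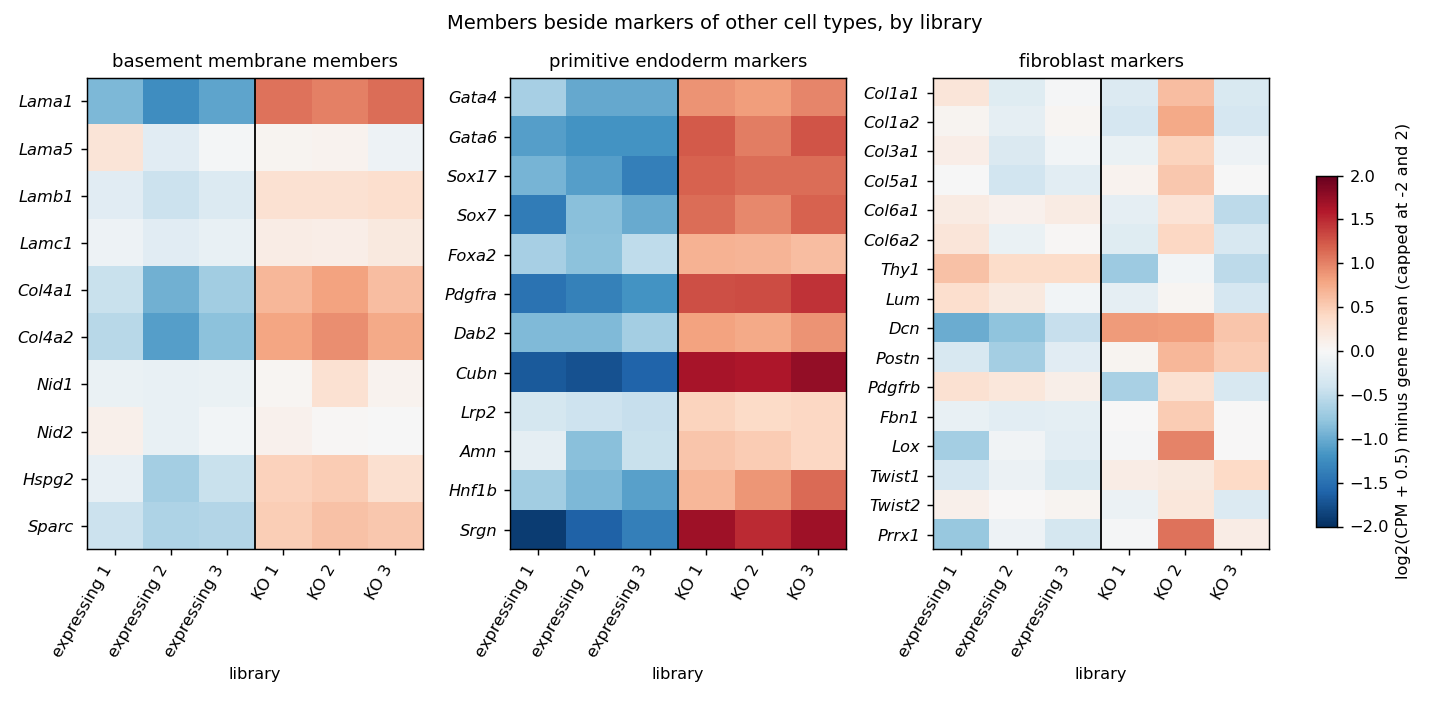
Log2 (CPM + 0.5) minus each gene's mean over the 6 libraries (colour, capped at -2 and 2) for the 10 genes, primitive endoderm markers and fibroblast markers, with libraries in columns. The other panels split between the groups, apart from Lama5 and Nid2, whereas among fibroblast markers many genes are highest in KO replicate 2.

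The genes whose profile over the 6 libraries was most like the mean profile of Lama1, Lamb1 and Lamc1 were sought among 14065 tested genes of at least 1 CPM on average, by the root mean square distance of centred log2 CPM. Outside the 10 genes, the nearest were Btg2 (0.0428), Gm16201 (0.0453), Wnt4 (0.053), Ptpn14 (0.0533) and Cep112 (0.054). Among the 10, Sparc lay at 0.059, Hspg2 at 0.142 and Col4a1 at 0.215. Lama1, Lamb1 and Lamc1 themselves lay at 0.558, 0.202 and 0.356, since they moved by different amounts, and the mean profile is a description of these 6 libraries with no test.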

How the data were processed

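Poly(A) RNA of 6 mouse ES cell libraries was sequenced, each made with a stranded kit from 800 ng of total RNA with 12 PCR cycles, per the labels' protocols. Values in the deposited table are raw counts of reads for each gene, with no normalization by the authors. The submitters' processing notes name bcl2fastq 2.20.0.422 and cutadapt 1.10, beside STAR 2.5.3a with HTSeq 0.6.1p1 and the build mm10, with no settings. The annotation release and the strand option of counting are not stated. Samples were grouped by title, and KO against expressing was the only comparison.

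Counts were fitted in R 4.3.3 with edgeR 4.0.16 (TMM scaling, filterByExpr with a minimum count of 10 and a minimum total of 15, robust glmQLFit, group as the only term). The p-values of glmQLFTest were adjusted by Benjamini-Hochberg over 17778 genes, and those under 0.05 were called. Intervals are 95%. The fitting step was tested on simulated data. Positions, exons and lengths came from GENCODE release M21, which held 55141 of the identifiers, and promoter windows from RefSeq. Ratios of counts per kb within a library were compared by exact permutation tests.

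Named genes were the 10 members, other laminin and collagen IV chains, the 4 genes of smallest p in each list, Col1a1, Col1a2, Col3a1, Gata4, Gata6, Sox17, Pdgfra, Afp, Ttr, Cdh5, Thbd, Pou5f1 and Taf13, and the 5 nearest profiles. Agrn, Col18a1, Itga3, Itga6, P4ha3, P4hb, Mia2, Lrp2, Snai1, Rbp4, Sox2, Col5a1, Fbn1 and Prrx1 were named after their values were seen. A further chain is not reported here. The members, gene lists and tests were chosen with earlier results of these data known. Alternatives were other scalings and filters, DESeq2 1.42.0, removal of each library's GC trend, the replicate number as a term, and leaving out each library in turn.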

Additional observations from a re-analysis of the deposited data

How the results depend on the processing

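The count of basement membrane genes called higher was 8 under other scalings, other filters, DESeq2 and the replicate block, 9 with the GC trend removed (with or without the block), and 7 to 9 when 1 library was left out. The count called lower was 0 under every setting tried. Replicate numbers did not pair the samples (correlations of deviations 0.0236, -0.0342 and 0.0419 for same-numbered libraries), and the replicate block gave 6644 calls over all genes against 7117. With library totals as the scale, the median log2 fold change over all tested genes was 0.08 in place of -0.01.

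The Lama5 log2 fold change turned positive with DESeq2 size factors (0.0084), library totals (0.0820), no filter (0.0011), at least 1 CPM in 3 libraries (0.0024), the replicate block (0.0066), the GC trend removed (0.0743, or 0.0744 with the block) and DESeq2 (0.0090), and ran from -0.1108 to 0.1616 when 1 library was left out. It passed the test in none of these. Taf13 was called higher in KO under 9 of the 14 alternatives, DESeq2 (log2 fold change 0.41, adjusted p = 0.0277) and the replicate block (0.41, edgeR adjusted p = 0.0241) among them. Leaving out 1 library also turned the sign of genes that were not called: Col1a1 (-0.2895 to 0.2498), Col1a2 (-0.3150 to 0.3398), Col3a1 (-0.0522 to 0.3158), Erg (-0.2617 to 0.2637), Lama2 (-0.1701 to 0.3250) and Thbd (-0.2425 to 0.3879). Of these, Col1a2 passed the test as lower without KO replicate 2 (edgeR adjusted p = 0.0464).

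Receptor calls numbered 11 (9 higher, 2 lower) with the GC trend removed, with or without the block, 7 higher and 1 lower with the replicate block, and 6 to 10 when 1 library was left out. Calls over all genes were 9450 with the GC trend removed and 5188 to 9440 when 1 library was left out, against 7117. Matrix turnover calls ran from 4 to 11 and fibroblast calls from 4 to 8 when 1 library was left out. The Col4a2 to Col4a1 difference was 0.2814 with the GC trend removed, against 0.2585. The cause was not tested. With 3 libraries a group, the ratios could not reach a p below 0.1.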
